A study of Mus musculus with 12 samples.

Results

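The data described here are the transcript levels of 7 genes for inhibitors of cyclin-dependent kinases (CDKs), out of 770 genes on the NanoString® Mouse PanCancer Pathways panel, in 12 samples. They were taken by symbol: the 3 genes of the CIP/KIP family, *Cdkn1a* (p21), *Cdkn1b* (p27) and *Cdkn1c* (p57), and the 4 genes of the INK4 family, *Cdkn2a*, *Cdkn2b* (p15), *Cdkn2c* (p18) and *Cdkn2d*. AKT/NRAS is a cell line from a murine hepatocellular carcinoma raised by hydrodynamic injection of a floxed myristoylated AKT construct together with activated NRAS. AKT Cre/NRAS was made from it by transfecting Cre recombinase, so that it keeps activated NRAS and has lost the AKT construct. Whether it is a single clone is not given in the sources used here. Cells of both lines received pooled siRNA against *Dusp4*, which encodes a phosphatase that inactivates ERK, or a control pool (SCR), in 3 biological replicates per group. Activated NRAS is thus shared by all 4 groups, and no untransfected cells were included.

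CDK inhibitors hold cells back in G1. INK4 proteins bind CDK4 and CDK6 and keep D-type cyclins from activating them, which leaves the retinoblastoma protein able to restrain E2F. CIP/KIP proteins bind cyclin-CDK complexes more broadly and block CDK2. p21 is the classical transcriptional target of p53, and p27 is removed by the SCF ubiquitin ligase with SKP2. *Cdkn2a* encodes both p16INK4a and p19ARF from separate first exons, and loss of this locus is frequent in cancer cell lines. In the liver, p21 and p27 are known as brakes on hepatocyte proliferation.

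Values are counts of hybridised probes scaled to reference genes, called normalized counts below, and values under a common floor of 27.1 were set to it. Levels were compared between groups for 1 gene at a time, never between genes, because probes differ in efficiency. The total of recovered counts ranged from 641790 to 1081646 per sample, and 252 to 293 of the 770 genes stood at the floor in a sample. The silenced gene checked the labels: *Dusp4* averaged 1228 normalized counts in AKT/NRAS SCR and 370 in AKT/NRAS siRNA, and 5556 in AKT Cre/NRAS SCR and 4023 in AKT Cre/NRAS siRNA, and in neither line did the siRNA and SCR samples overlap. *Akt1* averaged 19831 and 18331 in AKT/NRAS SCR and siRNA, and the 6 AKT Cre/NRAS samples held 337 to 587. Of the hepatocyte lineage list, *Fgfr4* and *Met* were above the floor in every sample, and the leukocyte markers *Csf1r* and *Il7r* were at the floor in every sample. The endothelial *Kdr* and the fibroblast *Pdgfrb*, *Col1a2* and *Col3a1* were also at the floor throughout. Other panel genes of these lists were not. The endothelial *Flt1* was above the floor in every sample. The fibroblast *Pdgfra* and *Col1a1*, summed where above the floor, held 56.6 to 104 in AKT/NRAS and 269 to 513 in AKT Cre/NRAS. The 3 AKT Cre/NRAS SCR libraries stood apart, with log2 ratios of *Rpl19* to *Polr2a* of 5.48, 6.36 and 6.88, against 4.72 to 5.03 in AKT Cre/NRAS siRNA and 3.81 to 3.92 in AKT/NRAS. These libraries are a whole group, and of the comparisons below only those within AKT/NRAS and between the lines under siRNA hold none of them as samples. Their values still entered the choice of reference genes, which was made over all 12 samples. Between the lines under siRNA the ratio of *Rpl19* to *Polr2a* differed as well. Scalings that ended a member's call are given beside it. *Rpl19* is itself among the reference genes used for scaling, some of which moved with siRNA in AKT Cre/NRAS, as given below.

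Between the lines, the most marked difference among the inhibitors was at *Cdkn2a*. It was well measured in every AKT/NRAS sample and at the floor in every AKT Cre/NRAS sample. The AKT/NRAS SCR samples held 1835, 1833 and 1776 normalized counts, and the AKT/NRAS siRNA samples held 1591, 1956 and 1869. All 6 AKT Cre/NRAS samples carried the lowest value of the deposited table, 20. Against that floor, *Cdkn2a* was at least 67.0-fold lower in AKT Cre/NRAS under SCR (limma, adjusted p = 6.32e-10) and at least 66.7-fold lower under siRNA (limma, adjusted p = 4.43e-09). The bound lay between 61.1-fold and 91.99-fold over 7 scalings and both treatments. With bulk RNA, fewer cells carrying a transcript and less transcript per cell cannot be told apart. The deposited table names the probe by symbol only, so that it cannot be said whether the probe reads the p16INK4a transcript, the p19ARF transcript or both.

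The 250 bases before the annotated starts of *Cdkn2a* and of its neighbour *Cdkn2b* are shown because these genes are neighbours among the panel genes of chromosome 4, with 1 other annotated gene between them, and differed so unequally between the lines. Sequences are from RefSeq (GRCm38.p6), read along the strand of the gene, here the minus strand, with matches to the motif GGGCGG on either strand in capitals.
Cdkn2a, distal start, chr4:89294620-89294869: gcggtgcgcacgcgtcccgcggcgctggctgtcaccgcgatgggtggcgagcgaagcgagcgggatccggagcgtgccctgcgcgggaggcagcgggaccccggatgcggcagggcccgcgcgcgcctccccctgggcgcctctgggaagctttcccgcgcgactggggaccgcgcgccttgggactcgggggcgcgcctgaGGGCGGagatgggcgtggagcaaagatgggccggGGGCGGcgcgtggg
Cdkn2a, proximal start, chr4:89282193-89282442: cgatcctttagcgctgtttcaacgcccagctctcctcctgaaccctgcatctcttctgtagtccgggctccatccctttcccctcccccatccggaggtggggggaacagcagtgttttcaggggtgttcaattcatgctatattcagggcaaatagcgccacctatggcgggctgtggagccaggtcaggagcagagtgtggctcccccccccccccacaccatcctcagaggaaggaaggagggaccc
Cdkn2b, chr4:89311033-89311282: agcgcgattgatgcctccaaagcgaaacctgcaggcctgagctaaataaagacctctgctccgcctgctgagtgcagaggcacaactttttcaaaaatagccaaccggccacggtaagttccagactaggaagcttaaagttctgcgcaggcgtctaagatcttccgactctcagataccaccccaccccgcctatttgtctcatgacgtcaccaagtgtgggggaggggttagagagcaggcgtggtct

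The distal start of *Cdkn2a* had 78.4% G and C and 40 CG dinucleotides, against medians of 52.4% and 6 over all 32851 promoter windows of that length, and held 2 matches to GGGCGG. The proximal start had 60% G and C, 7 CG dinucleotides and no match. The *Cdkn2b* window had 53.6% G and C, 12 CG dinucleotides and no match. GGGCGG occurred in 32.7% of all windows, so that its presence or absence here is a description only. CCAAT, found in 33.8% of windows, and TATAAA, found in 12.4%, had no match in these 3 windows. All 3 motifs were searched on both strands.

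*Cdkn2b*, whose p15 protein is the INK4 inhibitor known to respond to TGF-beta, was lower in AKT Cre/NRAS than in AKT/NRAS but remained far above the floor. Its values were 4898, 4800.02 and 4497 in AKT/NRAS SCR, and 4535, 4810 and 4734 in AKT/NRAS siRNA. They were 2722, 2970.4 and 2812 in AKT Cre/NRAS SCR, and 2837, 2969 and 2906 in AKT Cre/NRAS siRNA. All 6 AKT Cre/NRAS samples thus lay below all 6 AKT/NRAS samples. The fall was 0.74 on the log2 scale under SCR (log2 fold change -0.74, SE 0.07, limma, adjusted p = 2.55e-05), a 1.67-fold difference of means, and 0.69 under siRNA (log2 fold change -0.69, SE 0.03, adjusted p = 1.40e-06). Under SCR the fold change was -0.23 with the values as deposited, where the test was not passed (adjusted p = 0.463). In order of level the AKT/NRAS groups came first, with overlapping SCR and siRNA samples, and the AKT Cre/NRAS groups followed, again overlapping. No other gene of the panel lies between *Cdkn2a* and *Cdkn2b*. The panel gene before them on the chromosome, *Ifna1*, was at the floor in all samples, and the one after them was *Jun*, at 1155 to 1643 normalized counts in AKT/NRAS and 130 to 210 in AKT Cre/NRAS.

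*Cdkn2c*, which encodes p18INK4c, was the only member that passed the test upwards with *Dusp4* siRNA in AKT/NRAS. It held 573, 576 and 527 normalized counts in AKT/NRAS SCR and 655, 692 and 727 in AKT/NRAS siRNA. The 3 siRNA samples lay above the 3 SCR samples. The rise was 0.31 on the log2 scale (SE 0.06, limma, adjusted p = 0.0130), a 1.24-fold difference, and it passed the test under all 8 scalings (0.27 to 0.64) and with each replicate left out in turn (0.27 to 0.35). It did not pass with an ordinary linear model (adjusted p = 0.0722) or with Benjamini-Yekutieli adjustment (adjusted p = 0.0880). In AKT Cre/NRAS the SCR samples held 353, 344 and 404 and the siRNA samples 387, 374 and 405, which overlapped (log2 fold change 0.09, SE 0.11, 95% interval -0.15 to 0.32, adjusted p = 0.525). The difference between these responses was -0.22 (SE 0.10, limma interaction, adjusted p = 0.101) and did not pass the test, but passed after re-centring on the median (-0.63) and quantile normalization (-0.59).

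Between the lines, *Cdkn2c* was lower in AKT Cre/NRAS by 0.61 under SCR (log2 fold change -0.61, SE 0.09, limma, adjusted p = 0.000377) and by 0.83 under siRNA (log2 fold change -0.83, SE 0.06, adjusted p = 6.90e-06), and neither pair of groups overlapped. Under SCR it did not pass under 3 scalings: the values as deposited (-0.10, adjusted p = 0.773), re-centring on the median (-0.25, adjusted p = 0.0608) and quantile normalization (-0.28, adjusted p = 0.0586). Its next panel neighbours on chromosome 4 were lower as well, *Prkaa2* with log2 fold changes of -2.57 and -2.17 and *Pik3r3*, a regulatory subunit of PI3K, from 579 to 640 normalized counts in AKT/NRAS to the floor in all AKT Cre/NRAS samples. *Pik3r3* belongs to a group of 12 panel genes that were above the floor in all 6 AKT/NRAS samples and at the floor in all 6 AKT Cre/NRAS samples. *Cdkn2a* and *Pik3r3* are the members of this group on chromosome 4. The other 10 were *Rasa4*, *Wnt16*, *Hoxa10*, *Bmp6*, *Il15*, *Cacna1g*, *Ccne1*, *Tnf*, *Efna2* and *Fanca*, on other chromosomes, named after their values were seen. Of these, *Ccne1* encodes cyclin E1, a partner of CDK2 and so a target of the CIP/KIP proteins, and its mean in AKT/NRAS was 43.2 normalized counts, close to the floor.

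*Cdkn2d*, which encodes the INK4 protein p19INK4d, was the member of its family with the higher level in AKT Cre/NRAS. Values were 291, 299 and 268 in AKT/NRAS SCR, 272, 262 and 287 in AKT/NRAS siRNA, 343, 349 and 350.1 in AKT Cre/NRAS SCR, and 316, 333 and 302 in AKT Cre/NRAS siRNA. All 6 AKT Cre/NRAS samples were above all 6 AKT/NRAS samples. The rise was 0.28 on the log2 scale under SCR (SE 0.09, limma, adjusted p = 0.0168) and 0.21 under siRNA (SE 0.06, adjusted p = 0.0201). Both are small and both calls depended on scaling. Under SCR the value was 0.0029 with the 10 reference genes ranked first, -0.14 with the 5 ranked first and -0.24 with reference genes chosen within the comparison, none past the threshold, and the call was also lost without AKT/NRAS SCR replicate 3 (adjusted p = 0.0593). Under siRNA the call was lost with the values as deposited (adjusted p = 0.0608), after re-centring on the median (adjusted p = 0.0906) and with the 10 reference genes ranked first (adjusted p = 0.0861). It was also lost without siRNA replicate 2 of AKT/NRAS (adjusted p = 0.0686) or of AKT Cre/NRAS (adjusted p = 0.0720). *Dusp4* siRNA gave -0.13 in AKT Cre/NRAS (SE 0.10, 95% interval -0.35 to 0.09) and -0.06 in AKT/NRAS (SE 0.07, 95% interval -0.22 to 0.09), and neither passed the test.

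**Figure D1:**
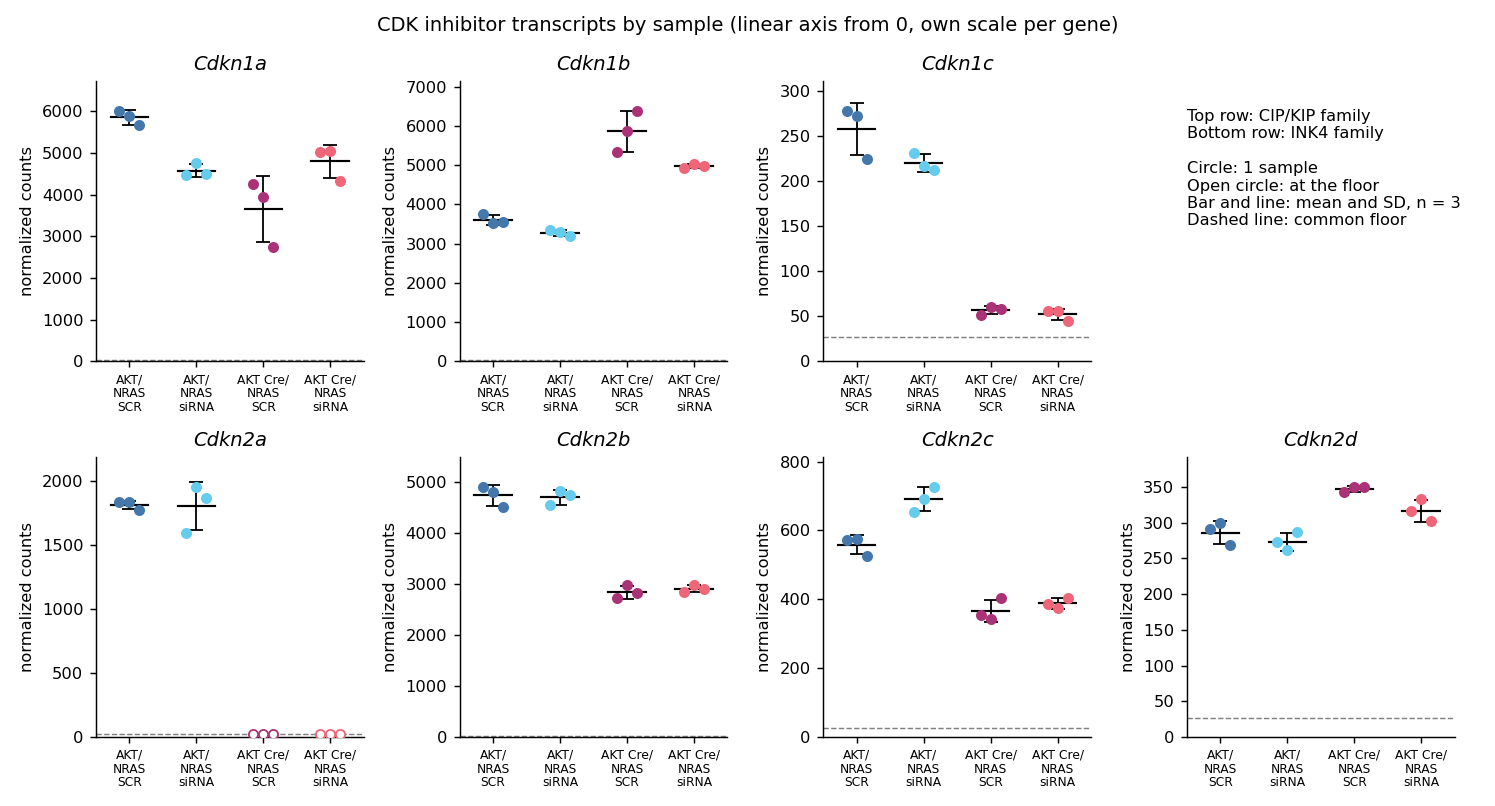
Normalized counts of the 7 CDK inhibitor genes in each of the 12 samples, on linear axes from 0 with a scale of their own; circles are samples, the horizontal bar and error bar are the mean and SD of 3 samples, and the dashed line is the common floor of 27.1. *Cdkn2a* is at the floor in all 6 AKT Cre/NRAS samples (open circles), *Cdkn1c* and *Cdkn2b* are lower there without overlap, and the AKT Cre/NRAS SCR samples of *Cdkn1a* spread from 2749 to 4264.

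Of the CIP/KIP family, *Cdkn1a* had fold changes of opposite sign with *Dusp4* siRNA in the 2 lines, with the weaker call in AKT Cre/NRAS. In AKT/NRAS it held 6003, 5885 and 5661 normalized counts under SCR and 4466, 4748 and 4498 under siRNA, with no overlap. It fell by 0.36 on the log2 scale (log2 fold change -0.36, SE 0.04, limma, adjusted p = 0.00161), a 1.28-fold difference. In AKT Cre/NRAS it held 4264, 3938 and 2749 under SCR and 5018, 5034 and 4332 under siRNA, again with no overlap. It rose by 0.41 (SE 0.15, limma, adjusted p = 0.0425), a 1.31-fold difference, while the median of all 503 genes tested in that comparison was 0.23. The difference between the responses was 0.77 (SE 0.19, 95% interval 0.36 to 1.18, limma interaction, adjusted p = 0.00809), and it was the only one of the 6 members measured in both lines to pass, where 45.3% of all genes passed in either direction. Silencing of *Dusp4* itself was unequal, with log2 fold changes of -1.73 in AKT/NRAS and -0.45 in AKT Cre/NRAS. The part of this unequal silencing in the difference was not tested.

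The strength of these calls for *Cdkn1a* was not the same. The fall in AKT/NRAS passed with each replicate left out and under 7 of 8 scalings, the exception being the values as deposited (-0.02, adjusted p = 0.869). The rise in AKT Cre/NRAS passed under 3 of 8 scalings, over which it ranged from 0.06 to 0.87, and in 2 of 6 fits with 1 replicate left out. It did not pass without a filter on low values, without an intensity trend, with an ordinary linear model or with Benjamini-Yekutieli adjustment. This comparison holds the SCR libraries that stood apart, whose part in the rise was not tested. AKT Cre/NRAS SCR replicate 3 had the lowest *Cdkn1a* and the highest ratio of *Rpl19* to *Polr2a* of the 12 samples, and without it the rise was 0.22 (adjusted p = 0.0300). No pairing of samples is given in the sources used here, and same-numbered samples of this comparison deviated together only weakly (r = 0.21, 0.11 and 0.23). As an alternative, with the replicate number as a block, the adjusted p for *Cdkn1a* was 0.00181 (limma). The difference between the responses was 0.35 or more under all 8 scalings and passed under 6 of them, with adjusted p = 0.605 on the values as deposited and 0.0544 after re-centring on the median. Here the reference genes chosen within the comparison were those already used, since all 12 samples enter, so that these 8 scalings hold 1 repeated fit. The difference passed with each of the 12 samples left out (0.58 to 0.90, the lowest without AKT Cre/NRAS SCR replicate 3). It did not pass with Benjamini-Yekutieli adjustment.

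Between the lines under SCR, *Cdkn1a* was lower in AKT Cre/NRAS by 0.70 on the log2 scale (log2 fold change -0.70, SE 0.15, limma, adjusted p = 0.00271), a 1.60-fold difference of non-overlapping groups. The value was -0.51 without AKT Cre/NRAS SCR replicate 3. It was -0.20 with the values as deposited, where the test was not passed (adjusted p = 0.534). Under siRNA the lines overlapped, and the difference was 0.07 (SE 0.06, 95% interval -0.08 to 0.22, adjusted p = 0.377). It passed with all 20 reference genes (0.17, adjusted p = 0.0273) and without AKT Cre/NRAS siRNA replicate 3 (0.14, adjusted p = 0.0191). In order of level AKT/NRAS SCR came first, AKT Cre/NRAS siRNA and AKT/NRAS siRNA followed with overlapping samples, and AKT Cre/NRAS SCR was last.

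The 250 bases before one annotated start of *Cdkn1a* are shown because the gene is a classical p53 target and they hold a match to the p53 consensus. The pattern searched, on both strands, was a pair of half-sites with a spacer of up to 13 bases (RefSeq, GRCm38.p6, plus strand). Capitals run over both half-sites and the spacer between them. They mark a match to this pattern only, and binding of p53 was not tested.
Cdkn1a, chr17:29090729-29090978: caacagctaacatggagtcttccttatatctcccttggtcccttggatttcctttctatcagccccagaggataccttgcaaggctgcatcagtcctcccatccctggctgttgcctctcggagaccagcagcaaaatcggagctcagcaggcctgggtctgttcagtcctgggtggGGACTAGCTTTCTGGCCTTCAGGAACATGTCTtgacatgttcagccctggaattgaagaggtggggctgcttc

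Of all 32851 windows, 21 (0.0639%) held such a match, and none of the other 8 windows of the inhibitor genes did. The second *Cdkn1a* window held 2 matches to GGGCGG. Windows were found for 6 of the 7 genes and not for *Cdkn1c*. *Trp53* itself, which encodes p53, passed the test upwards with *Dusp4* siRNA in both lines, by 0.44 on the log2 scale in AKT Cre/NRAS (limma, adjusted p = 0.0177) and by 0.19 in AKT/NRAS (adjusted p = 0.0190), while *Cdkn1a* rose in the first and fell in the second. *Gadd45a*, another p53 target, fell in both, by 0.40 (adjusted p = 0.0138) and by 0.22 (adjusted p = 0.0348). *Tnfrsf10b*, also a p53 target, rose by 0.35 in AKT Cre/NRAS (adjusted p = 0.0295) and gave 0.01 in AKT/NRAS (adjusted p = 0.958). The targets *Mdm2*, *Bax*, *Fas*, *Gadd45b* and *Gadd45g* passed in neither line.

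*Cdkn1b*, which encodes p27, was the member with the clearly higher level in AKT Cre/NRAS. It held 3748, 3524 and 3538 normalized counts in AKT/NRAS SCR, 3344, 3284 and 3188 in AKT/NRAS siRNA, 5334, 5863 and 6375 in AKT Cre/NRAS SCR, and 4924, 5024 and 4971 in AKT Cre/NRAS siRNA. No 2 of the 4 groups overlapped. The rise between lines was 0.70 on the log2 scale under SCR (SE 0.09, limma, adjusted p = 9.51e-05) and 0.60 under siRNA (SE 0.03, adjusted p = 1.36e-06), which are 1.63-fold and 1.52-fold differences. Under SCR it did not pass with the 5 reference genes ranked first (0.28, adjusted p = 0.146) or with reference genes chosen within the comparison (0.18, adjusted p = 0.414), and under siRNA it passed with every scaling.

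With *Dusp4* siRNA, *Cdkn1b* fell by 0.14 in AKT/NRAS (log2 fold change -0.14, SE 0.04, limma, adjusted p = 0.0354), a 1.10-fold difference. That call was lost in 5 of the 6 fits with 1 replicate left out, all but the one without AKT/NRAS siRNA replicate 1 (adjusted p from 0.0552 to 0.116 in the others), after re-centring on the median (adjusted p = 0.192), and with the values as deposited, where the sign turned (0.20, adjusted p = 0.121). In AKT Cre/NRAS the value was -0.23 (SE 0.09, adjusted p = 0.0577), which did not pass, although the groups did not overlap. With the replicate block it passed (adjusted p = 0.0477), as it did after re-centring on the median (-0.59), after quantile normalization (-0.35) and with all 20 reference genes (-0.30). The difference between the 2 responses was -0.09 (SE 0.09, 95% interval -0.28 to 0.10, adjusted p = 0.394), and passed under 3 scalings in either direction (-0.51, -0.22 and 0.39).

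*Cdkn1c*, the imprinted gene for p57, was low in AKT Cre/NRAS but above the floor in every sample. AKT/NRAS SCR held 277, 271 and 224 normalized counts and AKT/NRAS siRNA 230.3, 217 and 212. AKT Cre/NRAS SCR held 51.8, 60.0 and 58.0 and AKT Cre/NRAS siRNA 55.8, 55.3 and 44.9. The lines were far apart, and the treatments within a line overlapped. *Cdkn1c* fell by 2.16 on the log2 scale under SCR (log2 fold change -2.16, SE 0.12, limma, adjusted p = 8.29e-07), a 4.55-fold difference, and fell by 2.06 under siRNA (log2 fold change -2.06, SE 0.10, adjusted p = 1.28e-06), a 4.23-fold difference. Both passed under all 8 scalings, from -2.68 to -1.66 and from -2.26 to -1.96. The response to siRNA was -0.22 in AKT/NRAS (SE 0.09, 95% interval -0.44 to -0.00447, adjusted p = 0.154) and -0.12 in AKT Cre/NRAS (SE 0.13, 95% interval -0.42 to 0.17, adjusted p = 0.474), and neither passed.

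**Figure D2:**
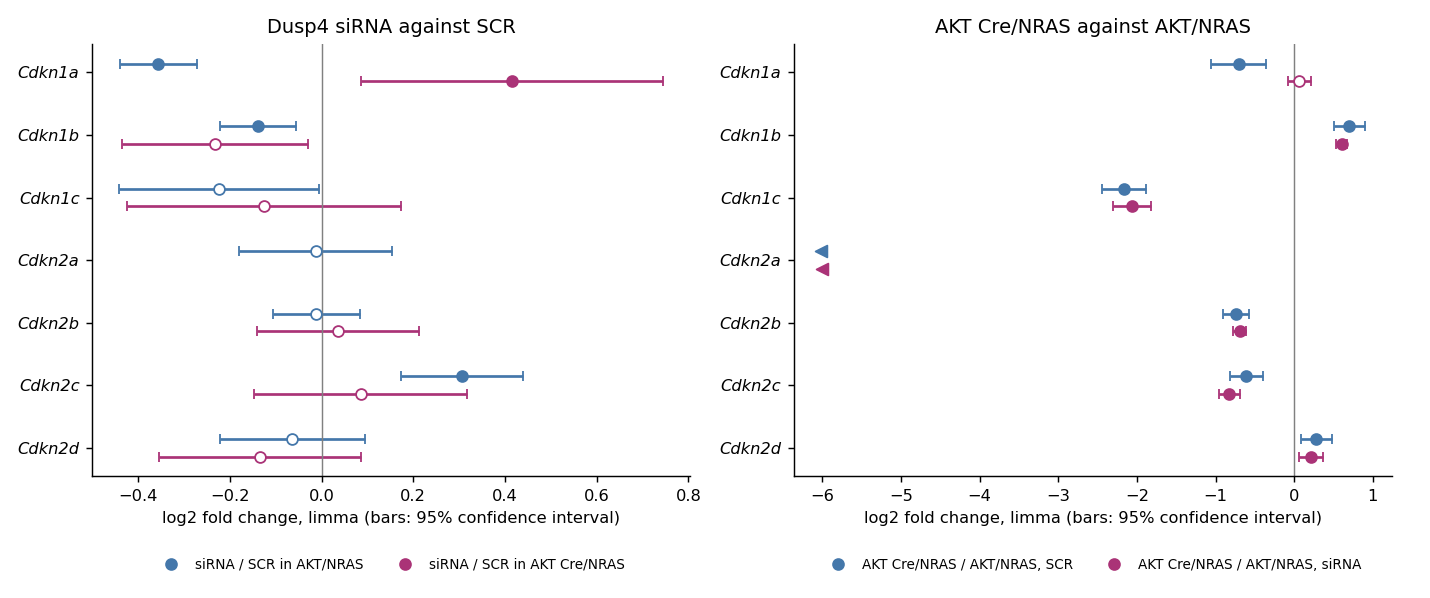
Log2 fold changes of the 7 genes with 95% confidence intervals (limma), for *Dusp4* siRNA against SCR in each line (left) and for AKT Cre/NRAS against AKT/NRAS under each treatment (right); filled symbols have an adjusted p under 0.05, and left-pointing triangles are bounds set by the floor. On the left *Cdkn1a* lies at -0.36 in AKT/NRAS and 0.41 in AKT Cre/NRAS, where *Cdkn2a* could not be tested; on the right only *Cdkn1b* and *Cdkn2d* are above 0 under both treatments.

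Over the families, 1 of the 6 members measured in AKT Cre/NRAS passed upwards with *Dusp4* siRNA and 0 passed downwards, where 40.6% of the 503 genes tested passed upwards and 5.37% downwards. At an unadjusted p under 0.05, 1 was lower (*Cdkn1b*). After re-centring on the median, *Cdkn1b* (-0.59), *Cdkn1c* (-0.47), *Cdkn2b* (-0.32) and *Cdkn2d* (-0.49) passed downwards. In AKT/NRAS, 1 of 7 passed upwards and 2 downwards, against 5.44% and 11.9% of 496 genes. With the values as deposited, *Cdkn2a* and *Cdkn2b* passed upwards (0.32 each). The siRNA and SCR groups did not overlap for 3 of 6 members in AKT Cre/NRAS (60.0% of all genes) and for 3 of 7 in AKT/NRAS (34.7% of all genes). Median log2 fold changes of the members were -0.04 and -0.06, against 0.23 and -0.03 over all genes tested in AKT Cre/NRAS and AKT/NRAS.

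Between the lines under SCR, 2 of 7 members passed upwards and 5 downwards, against 28.9% and 48.0% of 515 genes, and all 7 had non-overlapping groups, as 79.8% of all genes did. Under siRNA 2 passed upwards and 4 downwards, against 36.6% and 37.9% of 522 genes, and 6 had non-overlapping groups against 76.6% of all genes. Members' medians were -0.70 and -0.69, where all genes had -0.22 and -0.0005. These comparisons share their samples with the siRNA comparisons and are not independent of them. Of the liver progenitor markers, the summed level of the 3 on the panel (*Spp1*, *Sox9* and *Prom1*) also moved with the line, from 15321 to 19906 in AKT/NRAS and from 101972 to 161827 in AKT Cre/NRAS. Nearly all of that sum was *Spp1*, and *Sox9* averaged 426 in AKT/NRAS SCR and 369 in AKT Cre/NRAS SCR, which did not pass the test (adjusted p = 0.180), and 359 and 564 under siRNA, which did (adjusted p = 0.00169). The endothelial *Flt1* moved with the line too, with 933 to 1403 normalized counts in AKT/NRAS and 239 to 495 in AKT Cre/NRAS, and the summed level of the fibroblast markers, at 56.6 to 104 and 269 to 513, of which only *Pdgfra* and *Col1a1* were above the floor in any sample. Their part in the differences between the lines was not tested.

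The ratio of one member to another within a sample does not depend on the scaling, and 4 such ratios were compared in the 4 comparisons, 16 in all, chosen after the values had been seen. The log2 ratio of *Cdkn1a* to *Cdkn1b* was 0.68, 0.74 and 0.68 in AKT/NRAS SCR and 0.42, 0.53 and 0.50 in AKT/NRAS siRNA. It was -0.32, -0.57 and -1.21 in AKT Cre/NRAS SCR and 0.03, 0.00283 and -0.20 in AKT Cre/NRAS siRNA. None of these groups overlapped another. *Dusp4* siRNA thus went with a ratio lower by 0.22 in AKT/NRAS (difference -0.22) and higher by 0.65 in AKT Cre/NRAS. With 3 samples against 3, a two-sided exact permutation test gave p = 0.1 for each, which is the smallest p it can give. Among the AKT Cre/NRAS samples, this log2 ratio fell in the order in which that of *Rpl19* to *Polr2a* rose, from 4.72 to 6.88. It is thus free of the scaling but not of the libraries that stood apart, whose part was not tested.

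The log2 ratio of *Cdkn2c* to *Cdkn2b* differed by 0.32 between siRNA and SCR in AKT/NRAS without overlap, and by 0.05 with overlap in AKT Cre/NRAS (two-sided exact permutation test, p = 0.1 and p = 0.7). That of *Cdkn2d* to *Cdkn2b* was higher in AKT Cre/NRAS by 1.02 under SCR and by 0.90 under siRNA, and that of *Cdkn1c* to *Cdkn1b* was lower, with differences of -2.88 and -2.69, none of them with overlapping groups. By construction no reference gene enters these ratios, and the pairs were chosen with the values known. The ratios therefore do not show whether *Cdkn2d* itself was higher in AKT Cre/NRAS, a call that depended on the scaling.

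**Figure D3:**
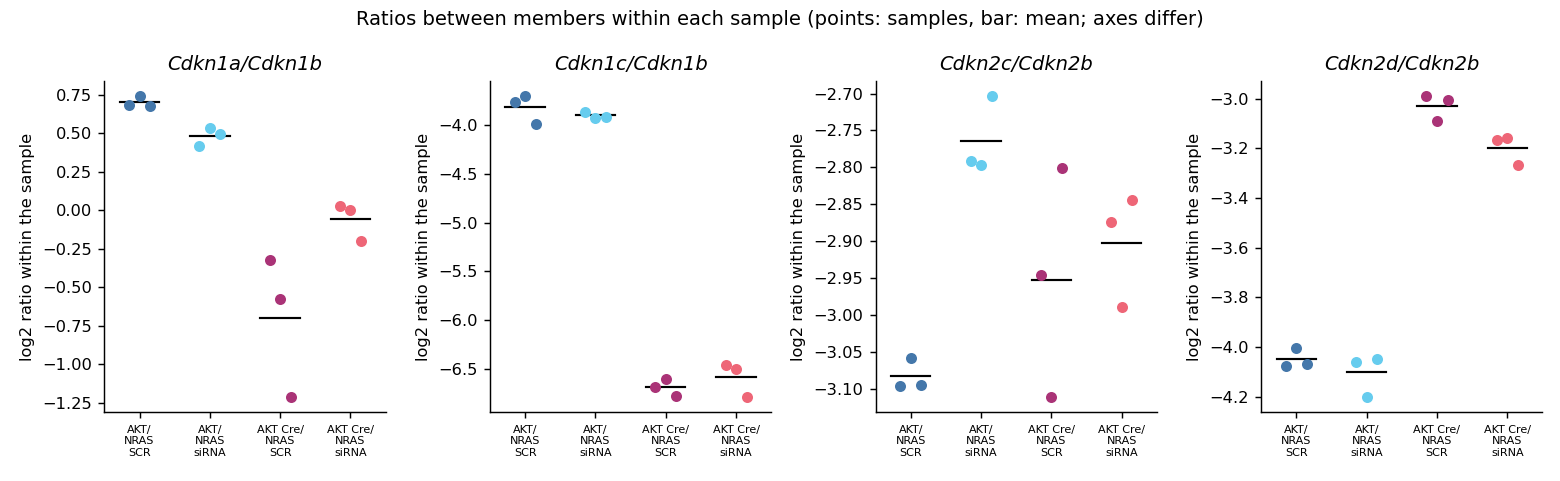
Log2 ratios between 2 members within each sample for 4 pairs; points are samples, bars are means of 3, and each panel has its own axis, which does not start at 0. The 4 groups of *Cdkn1a* to *Cdkn1b* do not overlap, with AKT/NRAS SCR the highest (0.68 to 0.74) and AKT Cre/NRAS SCR the lowest (-1.21 to -0.32).

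The proteins that the inhibitors bind were followed in a list of 12 cyclins and CDKs, of which 9 could be tested in AKT/NRAS and 8 in AKT Cre/NRAS. With *Dusp4* siRNA, 4 rose and 1 fell in AKT Cre/NRAS, and 1 rose and 1 fell in AKT/NRAS, where 40.6% and 5.37% of all genes did so in the first comparison and 5.44% and 11.9% in the second. The same shares are the background for the siRNA counts of the lists that follow, and with re-centring on the median the split of all genes in AKT Cre/NRAS turned from mostly upwards to mostly downwards. In AKT Cre/NRAS *Ccnd2*, a D-type cyclin, rose by 0.56 and *Cdk6*, its kinase partner, by 0.57 (limma, adjusted p = 0.00329 for both), and *Ccne2*, a cyclin of CDK2, fell by 1.02 (adjusted p = 0.00460). In AKT/NRAS *Ccna2*, the S phase cyclin A2, fell by 0.52 (adjusted p = 0.00161) and *Ccnd2* rose by 0.17 (adjusted p = 0.0176). Between the lines under SCR 3 were higher and 4 lower, among them *Ccnd2*, which fell by 2.13 (adjusted p = 1.69e-07), and under siRNA 3 were higher and 3 lower. For these and the later lists, 28.9% of all genes were higher and 48.0% lower under SCR, and 36.6% and 37.9% under siRNA. The list's medians were 0.24, -0.03, 0.16 and 0.08 in these 4 comparisons, beside 0.23, -0.03, -0.22 and -0.0005 for all genes.

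Downstream of the inhibitors, 4 of 8 RB and E2F genes were on the panel. *Rb1*, which encodes the retinoblastoma protein, rose by 0.31 with siRNA in AKT Cre/NRAS (limma, adjusted p = 0.0371). It was lower in AKT Cre/NRAS than in AKT/NRAS under SCR, where it fell by 0.65 (adjusted p = 0.000317). Under siRNA its difference between the lines was -0.12 and did not pass (adjusted p = 0.181). *Tfdp1*, the dimerization partner of E2F, rose by 0.24 with siRNA in AKT/NRAS (adjusted p = 0.0143). Of 13 DNA replication genes of S phase, 11 were tested in each siRNA comparison. In AKT Cre/NRAS 2 rose with siRNA (*Cdc25a* by 0.44 and *Mcm4* by 0.36) and 5 fell, such as *Hist1h3b*, which fell by 0.54 (adjusted p = 0.0198). In AKT/NRAS 4 rose, such as *Mcm7* by 0.27 (adjusted p = 0.00816), and 0 fell, also at an unadjusted p under 0.05. Between the lines under SCR 7 were higher in AKT Cre/NRAS, with *Hist1h3b* by 1.51 (adjusted p = 9.06e-06), and 1 was lower. The list's medians were -0.36 with siRNA in AKT Cre/NRAS (0.23 for all genes), 0.18 in AKT/NRAS (-0.03 for all genes) and 0.51 between the lines under SCR (-0.22 for all genes).

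Of the regulators of the inhibitors, 10 of 13 genes of the p53 list were on the panel. With siRNA 2 rose and 1 fell in AKT Cre/NRAS, and 1 rose and 1 fell in AKT/NRAS. Between the lines 5 were higher in AKT Cre/NRAS under either treatment, while 1 was lower under SCR and 2 were lower under siRNA. Under SCR these were *Bax* (0.74, limma, adjusted p = 2.96e-05) and *Fas* (1.53, adjusted p = 7.64e-05), both genes of apoptosis, among those higher, and *Gadd45b* (-2.68, adjusted p = 4.43e-08) as the one lower. *Trp53* was -0.25 there and did not pass (adjusted p = 0.0892). The list's median was 0.54 under either treatment, beside -0.22 for all genes under SCR and -0.0005 under siRNA.

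Of the SCF ubiquitin ligase, which acts on p27 protein, 5 of 7 genes were on the panel. *Skp2*, its p27 receptor, rose by 0.38 with siRNA in AKT/NRAS (limma, adjusted p = 0.0174), where *Cdkn1b* fell, and was -0.08 in AKT Cre/NRAS (adjusted p = 0.626). It was higher in AKT Cre/NRAS under SCR by 0.61 (adjusted p = 0.000537), where *Cdkn1b* was higher too. Under siRNA the difference of *Skp2* between the lines was 0.14 and did not pass (adjusted p = 0.135). In all, 2 rose and 0 fell with siRNA in AKT/NRAS, 0 rose and 1 fell in AKT Cre/NRAS (*Skp1a*, which fell by 0.54, adjusted p = 0.0204), and 1 was higher and 2 lower between the lines under SCR. The counts of 0 were also 0 at an unadjusted p under 0.05. Of all genes, 5.44% rose and 11.9% fell in AKT/NRAS and 40.6% and 5.37% in AKT Cre/NRAS, and the list's medians were 0.20 and -0.08, beside -0.03 and 0.23.

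TGF-beta signalling induces *Cdkn2b* and MYC represses it. Of 10 tested genes of that list, 7 rose and 0 fell, also at an unadjusted p under 0.05, with siRNA in AKT Cre/NRAS, led by *Smad3* (0.71, limma, adjusted p = 0.00329), *Tgfbr2* (0.46, adjusted p = 0.00355) and *Tgfb1* (0.76, adjusted p = 0.00474), and 2 rose and 4 fell in AKT/NRAS. The list's medians were 0.34 and -0.13, beside 0.23 and -0.03 for all genes, of which 40.6% rose and 5.37% fell in AKT Cre/NRAS. *Cdkn2b* itself gave 0.04 (SE 0.08, 95% interval -0.14 to 0.21, adjusted p = 0.743) and -0.01 (SE 0.04, 95% interval -0.11 to 0.08, adjusted p = 0.910). Between the lines under SCR 1 was higher and 8 were lower in AKT Cre/NRAS, where *Cdkn2b* was lower: *Tgfb3* fell by 2.89 (adjusted p = 4.43e-08), *Mycn* fell by 3.04 (adjusted p = 6.57e-07), *Tgfbr1* fell as well (adjusted p = 1.33e-06), and *Myc* was higher by 0.40 (adjusted p = 0.00558). The list's median was -0.93 there, beside -0.22 for all genes. Under siRNA 2 were higher, 5 were lower and 3 did not pass, with a median of -0.17 beside -0.0005 for all genes. *Cdkn2b* was lower there too (-0.69), and a link between the list and *Cdkn2b* was not tested.

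FOXO factors, which AKT holds inactive, induce *Cdkn1b*. Of 5 tested AKT and FOXO genes, 0 were higher and 3 lower in AKT Cre/NRAS under SCR (limma), where 48.0% of all genes were lower, and the list's median was -0.30 beside -0.22. Between the lines under siRNA 2 were higher and 2 lower. With siRNA 2 rose in AKT Cre/NRAS (*Akt1* by 0.52 and *Foxo4* by 0.46) and 2 fell in AKT/NRAS. None was higher under SCR at an unadjusted p under 0.05 either, in this list or the next. Of 4 tested genes for Polycomb and DNA methylation, which silence the *Cdkn2a* locus in many cells, 0 were higher and 2 lower in AKT Cre/NRAS under SCR: *Dnmt3a* fell by 0.84 (adjusted p = 0.00107) and *Ezh2* by 0.27 (adjusted p = 0.00568). These 2 of 4 are near the 48.0% of all genes that were lower, and the list's median was -0.28 beside -0.22. Under siRNA 1 was higher and 1 lower. *Dnmt1* and *Dnmt3a* rose by 0.57 each with siRNA in AKT Cre/NRAS (adjusted p = 0.00738 for both). *Cdkn2a* could not be tested with siRNA in AKT Cre/NRAS, and in AKT/NRAS its value was -0.01 (SE 0.07, 95% interval -0.18 to 0.15, adjusted p = 0.949).

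The genes with the most similar profile over the 12 samples were found for each member among 498 genes, by the root mean square difference of log2 values centred on each gene's mean. These are descriptions, since the samples share libraries and scaling. *Cdkn1a* was nearest to *Sdha* (0.11) and *Map2k2* (0.12), against a median of 0.40 over all genes compared. *Cdkn1b* was nearest to *Pold4* (0.09) and *Eif4ebp1* (0.11). *Cdkn1c* was nearest to *Tmprss2* (0.19) and *Fos* (0.20). *Cdkn2b* was nearest to *Id1* (0.06) and *Ifnar1* (0.09), *Cdkn2c* to *Rbx1* (0.12) and *Sf3a3* (0.13), and *Cdkn2d* to *Cd14* (0.08) and *Cdk4* (0.10). For *Cdkn2a* these were *Akt1* (0.39, median 2.95) and *Pik3r3* (0.79), where the values at the floor are bounds.

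The scaling decided how many genes passed with *Dusp4* siRNA, and the members were read against it. In AKT Cre/NRAS 204 genes rose and 27 fell, but after re-centring on the median 32 rose and 136 fell, and with the values as deposited 0 rose and 1 fell (70 at an unadjusted p under 0.05). In AKT/NRAS 27 rose and 59 fell, and with the values as deposited 287 rose and 3 fell. Between the lines under SCR 149 were higher and 247 lower, and with the values as deposited 202 were higher and 99 lower. The median of all genes moved with these settings from -0.10 to 0.67 in the first comparison. *Cdkn1a* and *Cdkn2c* kept their direction in AKT/NRAS under all 8 scalings, as *Cdkn1a* did in AKT Cre/NRAS. Of the 15 reference genes kept, some passed the test with siRNA in AKT Cre/NRAS, in both directions (limma, adjusted p under 0.05). *Rpl19* (-0.61), *Hprt* (-0.46), *Nubp1* (-0.41) and *Oaz1* (-0.35) fell, and *Sap130* (0.54), *Abcf1* (0.52) and *Sdha* (0.44) rose.

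**Figure D4:**
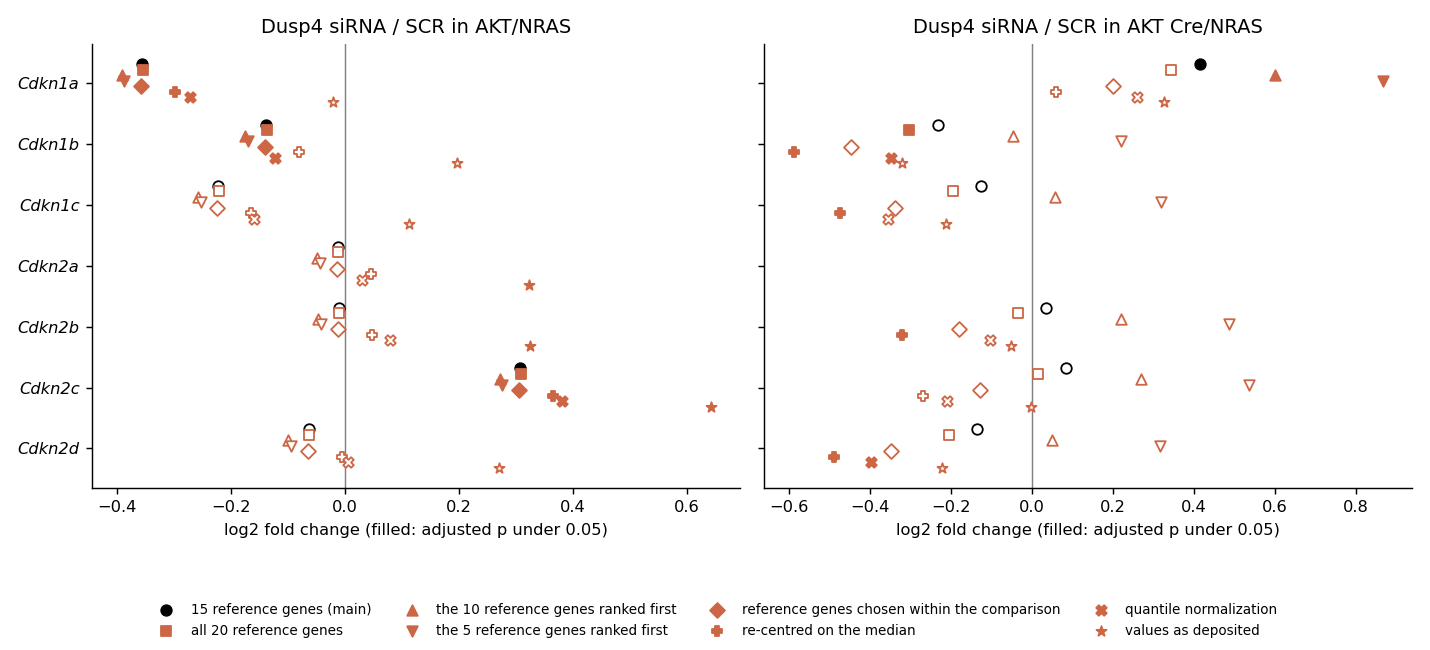
Log2 fold changes with *Dusp4* siRNA for the members under 8 scalings, in AKT/NRAS (left) and AKT Cre/NRAS (right); each symbol is a scaling and filled symbols have an adjusted p under 0.05. In AKT/NRAS the scalings lie close together apart from the values as deposited, and in AKT Cre/NRAS they move all members together, with *Cdkn1a* between 0.06 and 0.87.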

How the data were processed

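Total RNA of 12 samples, in 4 groups of 3 biological replicates taken from the sample labels, was read on the nCounter system with the Mouse PanCancer Pathways panel (770 gene probes). The authors used nSolver on the scans. What they deposited is, for every gene, a signal that the values show to be a barcode count times 1 factor per sample (0.827 to 1.27) that follows the positive controls, with values at or under 20 set to 20. Above that floor, all values were whole counts within 0.05 after division by the factor. Because 252 to 293 genes per sample stood at the floor, no count model was fitted. The deposited values carry no scaling to reference genes, although the methods name one. It was completed with geNorm over all 12 samples, which kept 15 of 20 reference genes and gave a common floor of 27.1. The plan named this completion, and use of the values as deposited only if they were already scaled to reference genes.

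Log2(value + 1) was tested with limma 3.58.1 in R 4.3.3, with an intensity trend, on the samples of each comparison leaving out genes at the floor in all of these samples. P values were adjusted by Benjamini-Hochberg over all genes tested, with a threshold of 0.05, and fold changes are on this log2 scale. Ratios of members and the descriptions were computed in Python 3.11.15 with scipy 1.17.1, and figures drawn with matplotlib 3.10.9. The fits were tested on simulated data. For 8 scalings, a pseudocount of 10, 2 filters, other models and adjustments, the replicate block and each replicate left out, all values were recomputed. Same-numbered samples of the AKT Cre/NRAS siRNA comparison deviated together (r = 0.21, 0.11 and 0.23 over 470 genes), while samples of unlike number reached 0.09. Between the lines under siRNA the same-numbered values were 0.21, 0.03 and 0.16. Those of the remaining comparisons did not all deviate together. Whether the numbers mark paired cultures is not given in the sources used here, so that the block is an alternative only.

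The members and all gene lists were chosen with earlier results of these data known. Named genes are the members, *Dusp4* and *Akt1*, and the 2 genes nearest in profile and the panel neighbours of each member on the chromosome. Also named are up to 3 genes of a list with the smallest p in a comparison. *Trp53*, *Gadd45a* and other p53 targets, *Rb1*, *Skp2* and *Myc* were singled out after their values were seen. So were the named reference genes, the markers and the genes at the floor in 1 line. Of the 770 genes, 769 were matched to RefSeq, used for gene order only. Values of some genes of the lists are not reported here. The replicates measure the spread between cultures of 1 line each.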

Additional observations from a re-analysis of the deposited data

Results flagged for a closer look

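*Cdkn1a* was set apart because its responses to *Dusp4* siRNA in the 2 lines differed by a test of the difference itself. The response in AKT Cre/NRAS minus that in AKT/NRAS was 0.77 on the log2 scale (SE 0.19, limma interaction, adjusted p = 0.00809), with all 3 siRNA samples above all 3 SCR samples in AKT Cre/NRAS and all 3 below in AKT/NRAS. The adjusted p lay between 0.00123 and 0.605 over the alternatives. In the same fit 213 genes of the panel had a positive difference past the threshold and 25 a negative one, and the median of all 525 genes was 0.25. With the values as deposited 2 were positive and 30 negative, and after re-centring on the median 50 and 151. The AKT Cre/NRAS SCR libraries, which enter this difference, are those that stood apart in the ratio of *Rpl19* to *Polr2a*, and their part in it was not tested. *Dusp4* was 3.32-fold lower with siRNA in AKT/NRAS and 1.38-fold lower in AKT Cre/NRAS. The part of this unequal silencing was not tested either.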

How the results depend on the processing

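Between the lines, the directions of *Cdkn1a*, *Cdkn1b*, *Cdkn1c*, *Cdkn2a*, *Cdkn2b* and *Cdkn2c* held in every setting run under each treatment, and the calls for *Cdkn1c* and *Cdkn2a* did too. *Cdkn2d* under SCR turned to -0.24 with reference genes chosen within the comparison and to -0.14 with the 5 ranked first. The number of members past the threshold between the lines under SCR was 7, 4 with the values as deposited, and 5 to 7 in all other settings. Under siRNA it was 6, and 5 to 7 in all other settings. Over all members and settings, 614 values kept direction and side of the threshold, 47 lost the call, 21 gained one and 41 turned sign. The cause of the changes below was not tested.

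With *Dusp4* siRNA in AKT Cre/NRAS, 1 member passed. There were 0 with the values as deposited, with reference genes chosen within the comparison, without a filter on low values, without an intensity trend, with an ordinary linear model and with Benjamini-Yekutieli adjustment. There were 4 after re-centring on the median, 2 after quantile normalization, 2 in 1 fit over all 4 groups, and 0 to 2 with a replicate left out: 0 without any one of the siRNA replicates or SCR replicate 2, and 2 without SCR replicate 1. With the replicate block 2 passed, *Cdkn1a* and *Cdkn1b*, and the block changed no other member's call. Signs turned for *Cdkn1b* (0.22), *Cdkn1c* (0.32) and *Cdkn2d* (0.32) with the 5 reference genes ranked first and for *Cdkn1c* (0.057) and *Cdkn2d* (0.051) with the 10 ranked first. *Cdkn2b* and *Cdkn2c* turned to -0.052 and -0.0017 with the values as deposited, to -0.32 and -0.27 after re-centring, to -0.10 and -0.21 after quantile normalization and to -0.18 and -0.13 with reference genes chosen within the comparison, and *Cdkn2b* to -0.035 with all 20 reference genes.

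In AKT/NRAS 3 members passed, and 1 did so with an ordinary linear model, with Benjamini-Yekutieli adjustment and in 1 fit over all 4 groups. With the values as deposited *Cdkn1b* (0.20), *Cdkn1c* (0.11), *Cdkn2a* (0.32), *Cdkn2b* (0.32) and *Cdkn2d* (0.27) turned. *Cdkn2a* and *Cdkn2b* also turned after re-centring (0.045 and 0.046) and quantile normalization (0.030 and 0.079), as did *Cdkn2d* after the latter (0.0048). With a replicate left out, *Cdkn2a* ranged from -0.073 to 0.075 and *Cdkn2b* from -0.048 to 0.014.

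Of the differences between responses 1 passed, 0 with the values as deposited and with Benjamini-Yekutieli adjustment, 4 after re-centring, after quantile normalization and with the 5 reference genes ranked first, and 2 with the 10 ranked first. *Cdkn1b* and *Cdkn2d* turned with the 10 (0.13 and 0.15) and the 5 (0.39 and 0.41) ranked first, and *Cdkn2c* with the 5 (0.26). *Cdkn1c* and *Cdkn2b* turned with the values as deposited (-0.32 and -0.38), after re-centring (-0.31 and -0.37) and after quantile normalization (-0.19 and -0.18), and *Cdkn2b* with all 20 reference genes (-0.024). The floor limits *Cdkn2a* in AKT Cre/NRAS to a bound, and *Cdkn1c* there lay at 44.9 to 60.0 against a floor of 27.1. The ratios between members were added after the values were seen.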
